A study of Mus musculus with 8 samples.

Results

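Chemokines are small secreted proteins that direct the movement of leukocytes, and their receptors are G protein-coupled receptors on the cells that respond. The genes described here were all those that the array names Ccl, Cxcl, Ccr or Cxcr with a number, together with Ppbp, Pf4, Xcl1 and Xcr1, and without Ccl19, Ccl27a and the Ccl21 genes of the chromosome 4 locus. The members follow from these names and not from a level or change, although earlier results of these data were known when the group was chosen. It gave 52 genes with 69 probes, of 37074 gene names and 56605 probes measured in all. There were 18 genes for CC ligands, 15 for CXC ligands, 1 for an XC ligand and 18 for receptors, and 15 of the 52 genes had more than 1 probe.

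RNA came from dissected cerebral cortex and striatum of 4 male B6 mice (C57BL/6J, 4 months of age) and 4 male BTBR/R mice (BTBRTF/ArtRbrc, 4 months of age except replicate 1, which was 6 months). BTBR/R is a subline of the inbred BTBR line, whose better known subline BTBR/J serves as a mouse model of autism spectrum disorder, and the comparison asks how brain gene expression differs between BTBR/R and B6 mice. Per the study's description BTBR/R mice carry the spontaneous alleles T of brachyury, tf (tufted) of Itpr3 and a t (black and tan) of the agouti locus. No drug or other treatment is given for either strain apart from the terminal anaesthesia. Each mouse had its own array and no RNA was pooled. The strains were bought or supplied from different breeders and lie in different columns of the same slide, so strain, source and slide column cannot be told apart.

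CC ligands carry 2 adjacent cysteines near their N terminus and CXC ligands have 1 residue between them. Most ligands bind more than 1 receptor, and many are made only after an inflammatory stimulus. In the resting brain the best known exceptions are Cxcl12 and Cxcl14, which neurons, glia and vessels make without such a stimulus, and fractalkine (Cx3cl1), which neurons make and microglia sense through Cx3cr1. Cells at the brain's borders, such as perivascular and meningeal macrophages, and blood cells left in the vessels are further sources of chemokine RNA in dissected tissue.

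Each gene was read by 60-base probes whose sequence is that of the RNA strand. The first 30 bases are shown for the probes on which the results below turn, because each result is that of 1 such probe. Positions are those of the whole probe in the mouse build mm9.
Ccl17, chr8:97335770-97335829, plus strand: tttggagacgccagggctgctgtccatggt
Ccl24, chr5:136046485-136046544, minus strand: ttaggggatgtgtttattctgtgagaacct
Ccr6, chr17:8449933-8449992, plus strand: acacgagagcacaaagcaacattgccccaa
Pf4, chr5:91202275-91202334, plus strand: ctggagagttaggtatcagctgcctaaatg
Ppbp, chr5:91198970-91199029, plus strand: ctggtcatgaccatgtttttccaatttctt
Ccl9, chr11:83388223-83388282, minus strand: caactaggatgaaataaattctgccttagc
Ccl3, chr11:83461358-83461417, minus strand: catgaactgacaaatgtacaatagatgctt
Cxcl14, chr13:56390078-56390137, minus strand: cctcattagaggccgcactgtatggctgtg

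None of these 8 probes shared a stretch of 20 bases with a probe named for another gene. The 2 probes of Cxcl11 were the only members that did, and the shared bases are in capitals in the stretches below, which are bases 19 to 48 of the first probe and 14 to 43 of the second.
Cxcl11 probe A_55_P2044413, chr5:92788640-92788699, minus strand: cacttgaaagGCAGAGGCAGGAGGATCTCT
Cxcl11 probe A_55_P2160387, chr5:92788567-92788626, minus strand: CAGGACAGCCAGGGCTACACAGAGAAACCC

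Values are scaled signals, the log2 of the processed signal minus the log2 of the 75th percentile of the same array, so that a probe at 0 is as bright as that percentile and 1 unit is a 2-fold step. A probe was detected on an array where the scanner software found it well above background. Strains were compared with limma over all 56605 probes, and a probe was called where the Benjamini-Hochberg adjusted p was under 0.05 and the change at least 2-fold. All changes are BTBR/R minus B6. Replicates of a strain correlated at 0.9962 to 0.9978 in B6 and 0.9942 to 0.9958 in BTBR/R over the probes detected on all 8 arrays. The arrays of the strains differed in how dim a signal could be detected, since the dimmest detected probe had a processed signal of 14.5 to 17.8 on B6 arrays and 36.1 to 47.1 on BTBR/R arrays. On the scaled axis these limits were -5.28 to -4.98 in B6 and -3.97 to -3.55 in BTBR/R. Probes for cortical excitatory neuron markers (8 of 8) and striatal projection neuron markers (10 of 12) were detected on all 8 arrays, and none of them was called.

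Of the 69 member probes, 15 (21.7%) were detected on all 8 arrays, against 50.4% of all probes, and 24 (34.8%) were detected on none, against 26.3% of all probes. The 15 probes belonged to 12 genes, which were Ccl6, Ccl9, Ccl12, Ccl17, Ccl24 and Ccl25 of the CC ligands, Cxcl11, Cxcl12, Cxcl14 and Pf4 of the CXC ligands, and the receptors Ccr6 and Cxcr6. A further 8 genes were detected on every B6 array but not on every BTBR/R array. No member was detected on every BTBR/R array without being detected on every B6 array. Per mouse, 29 to 38 member probes (42% to 55.1%) were detected in B6 and 16 to 18 (23.2% to 26.1%) in BTBR/R. Over all probes the share detected was 64.5% to 66.8% in B6 and 53.5% to 57.2% in BTBR/R. The part of the detection limits in these counts was not tested.

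In all, 21 member probes were called higher in BTBR/R mice, against 20.2% of all probes, and 3 were called lower, against 2.27% of all probes. Only 2 of the 21, for Ccl17 and Ccl24, were detected on all 8 arrays, and 17 of them were detected on no array. Among the 15 probes detected on all 8 arrays, 2 were therefore called higher and 0 lower, where 1.04% and 1.16% of all probes so detected were called (limma). At any fold, 6 of the 15 had an adjusted p under 0.05, namely Ccl17, Ccl24 and Ccr6 higher and Pf4, Ccl9 and Cxcl14 lower, against 26.9% of all probes detected on all 8 arrays. The strains did not overlap for 7 of the 15, against 32.6% of all such probes, and for 1 of the 7, a Cxcl11 probe, the B6 minimum and the BTBR/R maximum both round to 2.98. The median change of the 15 was 0.13 on the log2 scale, against 0.00 over all such probes.

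**Figure D1:**
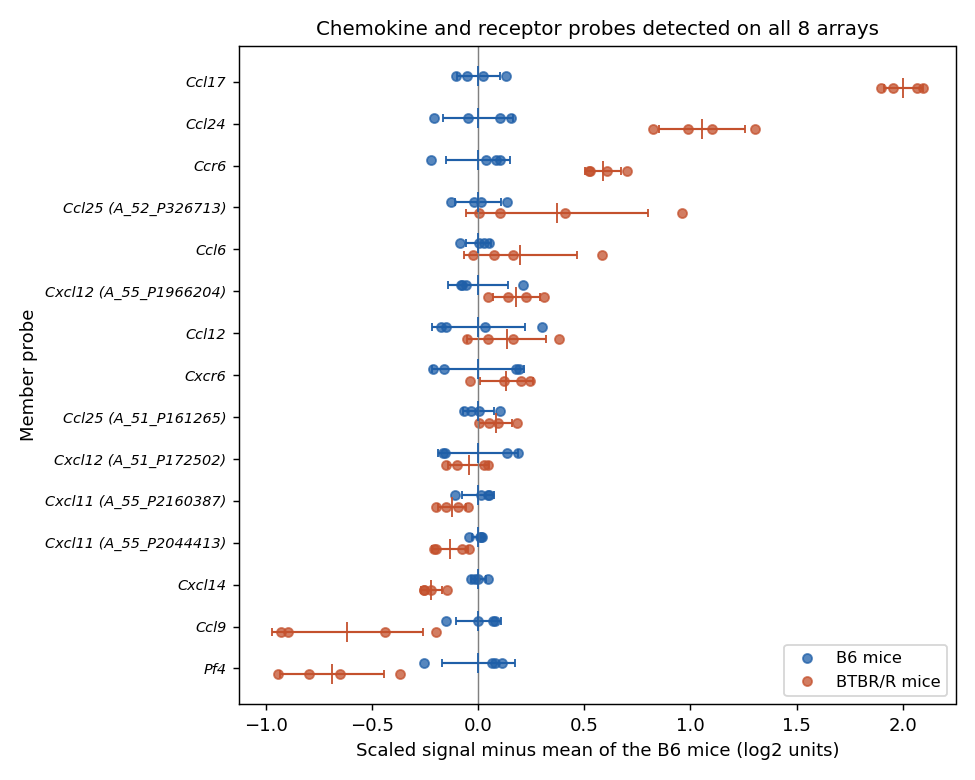
Scaled signal of each mouse minus the B6 mean of the same probe, in log2 units, for the 15 member probes detected on all 8 arrays. Points are mice (4 of each strain), ticks are strain means and bars are SD. The BTBR/R mice lie 2.0 above the B6 mean for Ccl17 and 1.05 above it for Ccl24, and the strains do not overlap for Ccl17, Ccl24, Ccr6, Cxcl14, Ccl9, Pf4 and, narrowly, 1 probe of Cxcl11.

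Ccl17 rose the most of the members detected on all arrays. It is a ligand of Ccr4 that dendritic cells make and that draws T helper 2 and regulatory T cells. Its scaled signal was -1.18, -1.41, -1.36 and -1.28 in the B6 mice and 0.76, 0.59, 0.65 and 0.79 in the BTBR/R mice. Every BTBR/R mouse was above every B6 mouse, and the gap between the strains was many times the spread within either. The means were -1.31 ± 0.10 (SD, n = 4) and 0.70 ± 0.09 (SD, n = 4), a 4.01-fold rise (log2 change 2.0 ± 0.07 SE, limma adjusted p = 4.88e-06). With another background correction (normexp) the change was 1.75. Ccr4, the receptor, was detected on no array with either of its probes, and neither was Ccl22, the other ligand of Ccr4. Of 13 probes of 5 dendritic cell markers, 2 were detected on all 8 arrays, for Flt3 (change 0.07) and Zbtb46 (change -0.04), and 0 of these were called by limma. Of the other 11, 5 were called higher, for Cd209a (detected on 1 B6 and 2 BTBR/R arrays), Clec9a (2 probes, detected on no array and on 1 BTBR/R array), and 1 probe each of Itgax and Zbtb46 detected on no array. Over the whole array, 67.7% of probes detected on no array were called higher. So were 973 of 6192 probes detected on some arrays but throughout neither strain. The summed signal of the 5 markers was 0.688 to 0.786 times the 75th percentile in B6 and 0.837 to 1.16 times in BTBR/R, a sum that includes probes detected on few arrays, and the part of these cells in the change of Ccl17 was not tested.

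Ccl17 lies on chromosome 8 beside Ccl22 and Cx3cl1, so the other probes within 500 kb were set beside it. Of 50 such probes named for other genes, 27 (20 names) were detected on all 8 arrays and 0 were called in either direction by limma, with an adjusted p under 0.05 for 8 of them at smaller folds. Their changes ran from -0.78 to 0.38 with a median of 0.01. Cx3cl1 had a change of 0.38 with the probe at -37.1 kb (limma adjusted p = 0.037) and -0.19 with the probe at -29.6 kb (limma adjusted p = 0.0455). On the other side and nearer, Ciapin1, a factor of iron-sulphur protein assembly, had changes of 0.20 and 0.28 at 10.8 and 20.7 kb.

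The start of Ccl17 is shown because Ccl17 alone was called among the probes there that were detected on all 8 arrays. The 300 bases, from 250 before to 50 after the start of transcription, are those of RefSeq on GRCm38.p6 at chr8:94810203-94810502, plus strand, and the capitals mark a match to TTCNNNNGAA, the palindrome bound by STAT6, a factor that interleukin 4 activates.
Ccl17 promoter: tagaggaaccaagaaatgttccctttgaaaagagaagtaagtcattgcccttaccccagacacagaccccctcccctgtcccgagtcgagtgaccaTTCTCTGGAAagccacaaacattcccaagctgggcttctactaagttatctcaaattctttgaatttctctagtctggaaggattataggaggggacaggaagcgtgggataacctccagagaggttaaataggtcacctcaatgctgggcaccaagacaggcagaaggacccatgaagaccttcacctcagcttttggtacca
The match covers bases 97 to 106 of the window. Of 32851 promoters of this length, 6.95% hold the motif, and of 39 promoters of 37 member genes that of Ccl17 alone does (2.56%). For comparison GGGNNTTTCC, a form of the NF-kB site searched on both strands, was in 6 of the 39 (15.4%, in Ccl9, Ccl20, Ccr3, Cxcl1, Cxcl2 and Cxcl3) and in 1.63% of all promoters. Of these 6 genes Ccl9 alone was detected on all 8 arrays. A match describes these letters only and was not tested as a binding site.

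Ccl24 (eotaxin-2), a ligand of Ccr3 that attracts eosinophils, was also called higher. Its scaled signal was -4.11, -3.96, -4.27 and -3.91 in the B6 mice and -3.07, -2.76, -2.96 and -3.24 in the BTBR/R mice. The strains did not overlap. The means were -4.06 ± 0.16 (SD, n = 4) and -3.01 ± 0.20 (SD, n = 4), a 2.08-fold rise (log2 change 1.05 ± 0.12 SE, limma adjusted p = 0.000324). The rise was at the 2-fold threshold, and its size moved with the treatment of dim signals. It was 0.98 without B6 replicate 3, 0.97 without BTBR/R replicate 2, 0.49 with normexp correction and 0.54 with all signals floored at the highest detection limit, and was not called in these 4 cases. Its receptor Ccr3 and the other eotaxins Ccl11 and Ccl26 were detected on no array. Within 500 kb, 28 probes named for other genes were detected on all 8 arrays, and 1 of them was called, Upk3bl at 490.9 kb, which rose by 1.24 (limma adjusted p = 0.0035).

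**Figure D2:**
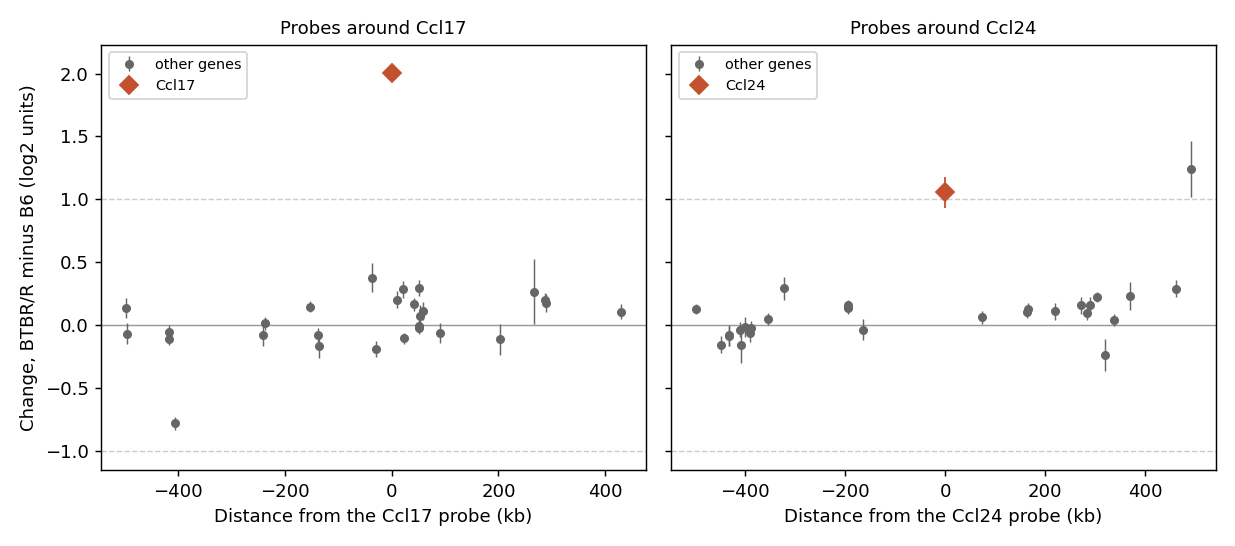
Change between strains (BTBR/R minus B6, log2 units, bars are SE) of probes detected on all 8 arrays, by distance in kb from the probe of Ccl17 (left) and Ccl24 (right); dashed lines mark 2-fold. Ccl17 at 2.0 stands above the 27 probes around it, which lie between -0.78 and 0.38, and Ccl24 at 1.05 lies above all 28 probes around it except Upk3bl at 1.24.

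The other CC ligands detected on all arrays were Ccl6, Ccl9, Ccl12 and Ccl25. Ccl6 and Ccl9 are neighbouring genes of myeloid cells that bind Ccr1, and microglia express both. Ccl9 had scaled signals of -2.26, -2.04, -2.03 and -2.11 in B6 and -3.01, -2.31, -2.55 and -3.04 in BTBR/R. The strains did not overlap, although BTBR/R replicate 2 came close to the B6 mice. Ccl9 fell by 0.62 on the log2 scale (1.53-fold, SE 0.17, limma adjusted p = 0.0257) and was not called, being short of 2-fold. This p rose to between 0.056 and 0.064 when B6 replicate 2, 3 or 4 or BTBR/R replicate 1 or 4 was left out, and was 0.0915 with normexp correction, where the change was -0.26, and 0.0855 with the floor.

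Ccl6 had scaled signals of -1.60, -1.65, -1.74 and -1.63 in B6 and -1.49, -1.07, -1.58 and -1.68 in BTBR/R, where replicate 2 was the highest of all 8 mice. The strains overlapped, and the difference of 0.20 (95% confidence interval -0.11 to 0.50, limma adjusted p = 0.27) did not pass the test. Ccr1 was detected on no array. The 11 probes of 8 microglia markers are given beside these genes, with 0 of the 9 detected on all arrays called by limma and summed signals of 115.2 to 122.9 times the 75th percentile in B6 and 112.3 to 120.1 times in BTBR/R.

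Ccl12, a ligand of Ccr2, had scaled signals of -2.81, -2.54, -2.99 and -3.01 in B6 and -2.67, -2.79, -2.46 and -2.89 in BTBR/R. The strains overlapped, with a difference of 0.14 (95% confidence interval -0.18 to 0.45). Ccl2, also a ligand of Ccr2, was detected on every B6 array and 1 BTBR/R array, at -4.38 to -4.10 in B6 and -4.80 to -3.67 in BTBR/R. Ccr2 itself was detected on 1 B6 array and no BTBR/R array.

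Ccl25, the ligand of Ccr9 that draws T cells to thymus and gut, had 4 probes on the array. Probe A_51_P161265 read 0.72, 0.76, 0.86 and 0.69 in B6 and 0.76, 0.81, 0.94 and 0.85 in BTBR/R. These overlapped, with a difference of 0.08 (95% confidence interval -0.06 to 0.22). Probe A_52_P326713 read -2.54, -2.68, -2.42 and -2.58 in B6 and -1.60, -2.15, -2.55 and -2.45 in BTBR/R, where the 6-month-old replicate 1 was the highest. Its difference was 0.37 (95% confidence interval -0.11 to 0.85), and 0.17 without that mouse. Another probe, of the non-coding transcript, was detected in the 4 B6 mice alone, at -4.26 to -3.72 in B6 and -4.35 to -3.61 in BTBR/R. The last was detected on no array and read -7.05, -7.36, -7.19 and -7.34 in B6 and -6.04, -5.63, -5.72 and -5.83 in BTBR/R, which is a called rise below the detection limit of both strains.

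Ccl3, Ccl5 and Ccl8 were near the limit of detection. Ccl3 (MIP-1 alpha), a ligand of Ccr1 that activated microglia make, was detected in all 4 B6 mice and in no BTBR/R mouse. It read -4.04, -4.16, -4.57 and -5.06 in B6 and -5.48, -5.25, -5.82 and -5.91 in BTBR/R, without overlap, and was called lower (limma adjusted p = 0.009). Of all probes that were detected in this way, in B6 mice alone, 20.9% were called lower, and of the 7 member probes in that position 2 were. The B6 mean of -4.46 ± 0.46 (SD, n = 4) lay under the signal a BTBR/R array needs for detection, and no fold is given for that reason. With normexp correction Ccl3 was not called (limma adjusted p = 0.41), nor with all signals floored at the highest detection limit.

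Ccl5 (RANTES) was detected on every B6 array and 1 BTBR/R array. It read -3.68 to -3.24 in B6 and -4.19 to -3.02 in BTBR/R, and was not called. Ccl8 was detected on every B6 array and 2 BTBR/R arrays. Within B6 it was the most uneven of the 26 probes detected throughout 1 strain, with -2.43 and -2.59 in replicates 1 and 3 and -3.92 and -4.07 in replicates 2 and 4, and the BTBR/R mice lay between -4.37 and -3.14.

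The platelet chemokines Pf4 (Cxcl4) and Ppbp (Cxcl7) lie side by side on chromosome 5, are stored in platelet granules, and Pf4 is also made by macrophages of the brain's borders. Pf4 was detected on all 8 arrays, at -1.13, -0.81, -0.79 and -0.76 in B6 and -1.81, -1.52, -1.24 and -1.67 in BTBR/R. Every BTBR/R mouse was below every B6 mouse, and B6 replicate 1 was below the other B6 mice. Pf4 fell by 0.69 on the log2 scale (1.61-fold, SE 0.14, limma adjusted p = 0.0064), under the 2-fold threshold.

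Ppbp was detected in all 4 B6 mice and in no BTBR/R mouse, at -4.61, -4.73, -4.38 and -4.99 in B6 and -6.29, -5.86, -5.58 and -6.04 in BTBR/R. The strains did not overlap, and Ppbp was called lower (limma adjusted p = 0.0011). As for Ccl3, the B6 level of -4.68 ± 0.26 (SD, n = 4) was below what the BTBR/R arrays could detect, no fold is given, and it was called neither with normexp correction (limma adjusted p = 0.0894) nor with the floor.

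Red blood cell markers fell beside Pf4 and Ppbp, and the markers of platelets and border macrophages are given with them. Of the 5 red blood cell probes detected on all 8 arrays, 4 were called lower, for Hba-a1, Hbb-bt and Alas2. Among all probes detected on all 8 arrays, 1.16% were called lower. Slc4a1, detected in the 4 B6 mice alone, was called lower as well, as were 20.9% of all probes so detected. The summed signal of the red blood cell markers was 79.4 to 262.7 times the 75th percentile in B6 and 53.9 to 66.9 times in BTBR/R. Of the 5 platelet markers, 1 probe (Gp1bb) was detected on all arrays and was not called (-0.13), with sums of 0.731 to 0.830 in B6 and 0.663 to 0.942 in BTBR/R. Of the 6 border macrophage markers, 4 probes were detected on all 8 arrays with 0 called and a median change of -0.39. Their sums were 1.14 to 1.43 in B6 and 0.962 to 1.03 in BTBR/R. The part of these cells in the change of Pf4 and Ppbp was not tested, and in dissected tissue fewer cells of a type cannot be told apart from less RNA per cell.

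Cxcl12 and Cxcl14, the chemokines known from resting brain, were detected in every mouse and changed by at most 1.17-fold on the probes detected on all arrays. Cxcl12 (SDF-1), the ligand of Cxcr4 and Ackr3, has splice forms with different ends, and its 2 probes were designed on different RefSeq transcripts. Probe A_51_P172502 read 2.74, 3.09, 3.04 and 2.73 in B6 and 2.75, 2.95, 2.93 and 2.80 in BTBR/R, overlapping, with a difference of -0.05 (95% confidence interval -0.29 to 0.20). Probe A_55_P1966204 read -1.23, -1.25, -1.25 and -0.96 in B6 and -1.12, -1.03, -0.95 and -0.86 in BTBR/R, also overlapping, with a difference of 0.18 (95% confidence interval -0.03 to 0.39). Both intervals leave out a 2-fold change.

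Cxcl14, which interneurons of the cortex express, read 4.14, 4.17, 4.22 and 4.16 in B6 and 4.02, 3.92, 3.92 and 3.95 in BTBR/R. The strains did not overlap, with an SD of 0.03 in B6 and 0.05 in BTBR/R. Cxcl14 fell by 0.22 (1.17-fold, SE 0.05, limma adjusted p = 0.007), the smallest change of the 6 that passed the test. Scaled on the spike-in controls, where the median change of all detected probes was 0.12, its change was -0.11 and did not pass (limma adjusted p = 0.31). Its second probe was detected on 1 B6 array.

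Cxcl16, a membrane-bound ligand of Cxcr6, was detected in the 4 B6 mice alone with both probes. They read -4.01 to -3.38 and -3.97 to -3.53 in B6 and -4.59 to -3.94 and -4.43 to -3.51 in BTBR/R, and neither was called. Cxcr6, a receptor of T and natural killer cells, was detected on all 8 arrays with 1 probe, at -3.19, -3.24, -2.85 and -2.83 in B6 and -2.78, -2.83, -2.90 and -3.06 in BTBR/R. The strains overlapped, with a difference of 0.13 (95% confidence interval -0.15 to 0.41). The other Cxcr6 probe was detected on every B6 array only, at -4.90 to -4.43 in B6 and -6.20 to -4.08 in BTBR/R.

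The 2 probes of Cxcl11, an interferon-induced ligand of Cxcr3, need to be read with their sequences. Probe A_55_P2160387 read 8.62, 8.65, 8.65 and 8.49 in B6 and 8.50, 8.55, 8.45 and 8.40 in BTBR/R, and probe A_55_P2044413 read 3.04, 3.04, 3.04 and 2.98 in B6 and 2.98, 2.82, 2.95 and 2.82 in BTBR/R. Neither change passed the test, at -0.12 (limma adjusted p = 0.14) and -0.13 (limma adjusted p = 0.093). The first of these probes shares stretches of 20 bases or more with 8 probes named for other genes, 6 of them on the same strand. Those 6 (Astn1, Elk1, Glrx2, Gm10856, Med16 and Ndor1) were all detected on all 8 arrays, with mean scaled signals of 2.10 to 9.12 and a median change of -0.07. The second shares 20 bases, on the opposite strand, with a probe of Fam109b. The capitals shown above are of the kind found in B1 elements, short repeats that occur throughout mouse RNAs, so signals from these 2 probes cannot be assigned to Cxcl11. The other interferon-induced ligands of Cxcr3 were dim, with Cxcl10 detected on 3 B6 arrays, Cxcl9 on 1 BTBR/R array and the receptor Cxcr3 on 3 B6 arrays.

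Of the 18 receptors, Ccr6 and Cxcr6 were detected on all 8 arrays. Ccr6, the receptor of Ccl20 on B cells, dendritic cells and T helper 17 cells, read -3.88, -3.63, -3.56 and -3.58 in B6 and -3.14, -2.96, -3.13 and -3.05 in BTBR/R. Every BTBR/R mouse was above every B6 mouse. Ccr6 rose by 0.59 (1.50-fold, SE 0.09, limma adjusted p = 0.0012), under the 2-fold threshold. Like Ccl24 it read close to the BTBR/R detection limit, and its change was 0.31 with normexp correction (limma adjusted p = 0.0016). Its ligand Ccl20 was detected on 1 B6 array. Ccr6 lies on chromosome 17, where 23 probes named for other genes within 500 kb were detected on all 8 arrays and 1 was called, Fndc1 at -495.8 kb, which rose by 1.13 (limma adjusted p = 1.61e-05). Around the members that fell, probes so detected and called within 500 kb were 2 of 25 for Ccl9 (AA465934, which rose by 5.57, and Wfdc18, which fell by 1.34), 1 of 9 for Pf4 (AU017193, which rose by 1.65) and 0 of 9 for Cxcl14 (limma).

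Ccr9 read -4.88 to -4.28 in B6 and -4.80 to -4.22 in BTBR/R with a probe detected in the 4 B6 mice alone, and was not called. Its other probe was detected on no array and read -7.32, -7.16, -7.44 and -7.58 in B6 and -5.63, -4.57, -5.94 and -5.20 in BTBR/R. This probe was called higher, although no array of either strain detected it. Ccr7, Ccr8, Ccr10, Cxcr1, Cxcr2, Cxcr4, Cxcr5 and Xcr1 were each detected on 1 or 2 arrays with at most 1 probe.

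Of the remaining ligands, Ccl4 was detected on 1 B6 array, Cxcl5 on 3 and Ccl28, a mucosal chemokine, on 2 and 3 with its probes. Probe A_55_P2896652 of Ccl28 was called lower and is given although its values were seen first. It read -2.83, -2.79, -5.70 and -2.59 in B6 and -6.19, -5.78, -5.85 and -5.95 in BTBR/R. B6 replicate 3 was at the level of the BTBR/R mice and the other 3 B6 mice were well above it. The call (limma adjusted p = 0.024) was made on these scaled signals. With the mean of the 4 BTBR/R detection limits set against the B6 mean, the fall was at least 1.17-fold, a bound that was not itself tested. The probe was not called with the floor at the highest limit, and was called with normexp correction. The call was lost in 6 of the 8 fits that left out a mouse. The other Ccl28 probe was not called.

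A further 16 genes were detected on no array with any probe. They were the ligands Ccl1, Ccl7, Ccl11, Ccl22, Ccl26, Cxcl1, Cxcl2, Cxcl3, Cxcl13, Cxcl15, Cxcl17 and Xcl1 and the receptors Ccr1, Ccr1l1, Ccr3 and Ccr4. Over the 24 probes detected nowhere, those of Ccl25, Ccr9 and other genes with a second probe included, 17 were called higher in BTBR/R mice, where 67.7% of all such probes were called higher. Their median change was 1.40 on the log2 scale, against 1.34 for all probes detected on no array. The median processed signal of these 24 probes lay between 3.50 and 3.98 in B6 and between 8.25 and 10.6 in BTBR/R, below the dimmest detected probe of each mouse. With normexp correction 0 of the 24 were called and their median change was 0.01, and limma then called 1 member probe higher in all, Ccl17. The remaining 2 probes called higher, for Cxcl9 and Cxcr5, were each detected on 1 BTBR/R array.

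**Figure D3:**
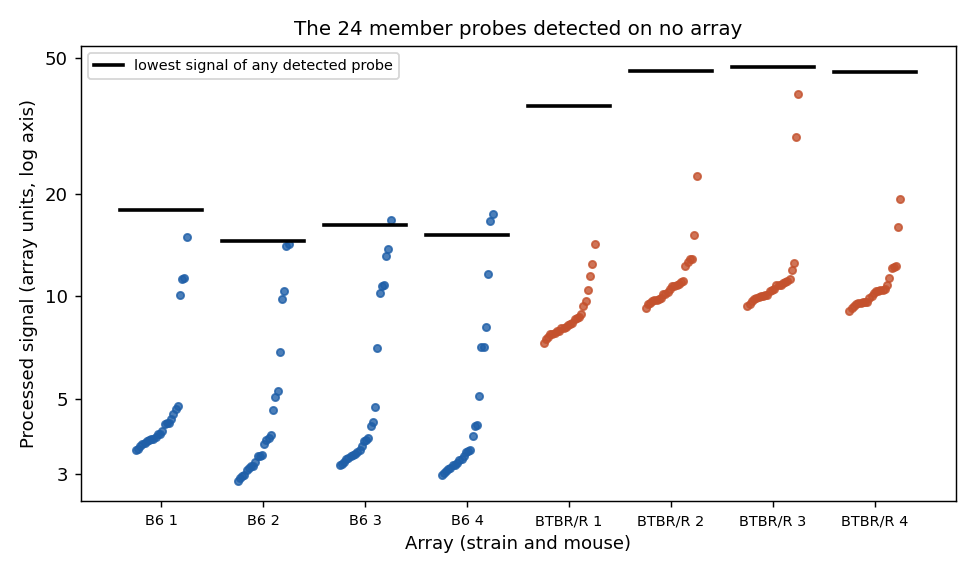
Processed signal (array units, log axis) of the 24 member probes detected on no array, for each of the 8 arrays. Points are probes and black lines mark the dimmest detected probe of the array; the points have medians of 3.50 to 3.98 in B6 and 8.25 to 10.6 in BTBR/R, and the lines lie at 14.5 to 17.8 and 36.1 to 47.1.

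**Figure D4:**
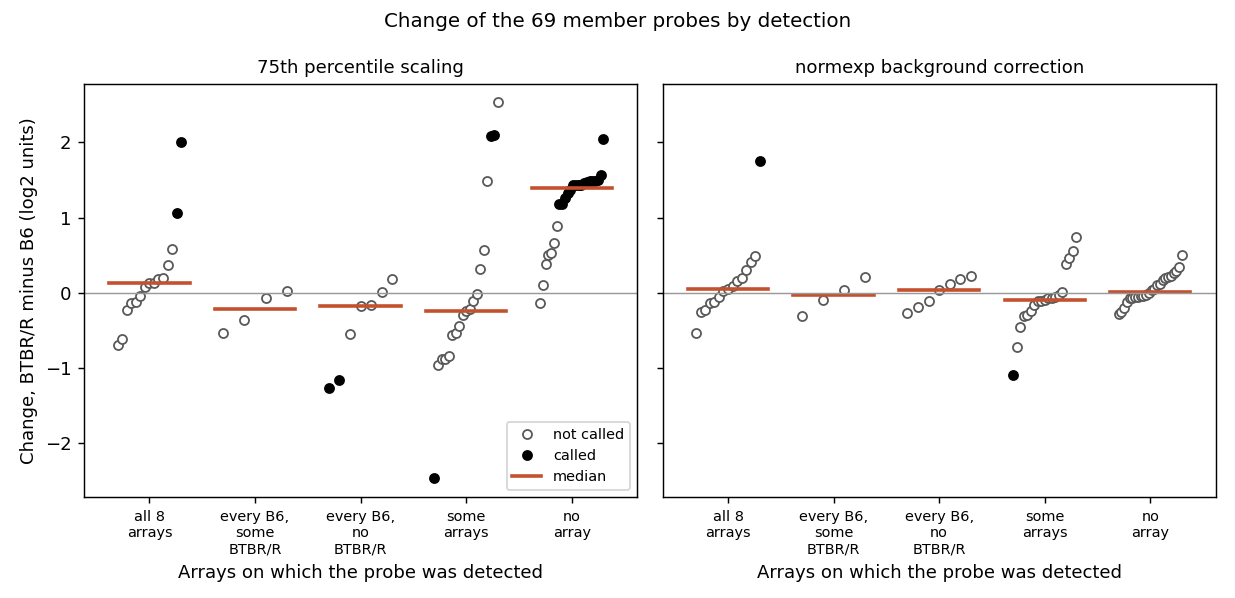
Change between strains (BTBR/R minus B6, log2 units) of the 69 member probes, grouped by the arrays on which each was detected, with 75th percentile scaling (left) and with normexp background correction (right). Filled points were called by limma, open points were not, and lines are medians; the median of the probes detected on no array is 1.40 on the left and 0.01 on the right.

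Lists of genes that work with chemokines were examined beside the members. In the fractalkine pair all 4 probes were detected on all 8 arrays and 1 was called. This was a probe of Cx3cr1, the fractalkine receptor of microglia, which went from 0.51 ± 0.01 (SD, n = 4) in B6 to 2.22 ± 0.03 (SD, n = 4) in BTBR/R, a 3.27-fold rise (limma adjusted p = 7.59e-07). The other probe of Cx3cr1 fell by 0.71 (limma adjusted p = 8.71e-05), so the probes of this gene went in opposite directions. Of the 8 probes of 5 atypical receptors, which take up chemokines without G protein signalling, 5 were detected on all 8 arrays and 0 were called by limma. Ackr3 and Ackr1 are named here after their values were seen. Ackr3, the atypical receptor of Cxcl12 and Cxcl11, went from 0.58 ± 0.11 (SD, n = 4) to 1.27 ± 0.06 (SD, n = 4), a rise of 0.69, short of 2-fold (limma adjusted p = 0.000129), and both probes of Ackr1, which venules and red cells carry, fell by 0.43 and 0.48.

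Of 25 probes of 14 genes that induce chemokines, such as interferons, interleukins and their transcription factors, 10 were detected on all 8 arrays with 0 called and a median change of 0.23. Stat6, named because its motif was shown for Ccl17, went from -1.61 ± 0.04 (SD, n = 4) in B6 to -0.99 ± 0.07 (SD, n = 4) in BTBR/R, a rise of 0.62 short of 2-fold (limma adjusted p = 5.1e-05). A probe of Irf1, detected in the 4 B6 mice alone, was called lower (limma adjusted p = 0.0153), with no fold given for want of detection in BTBR/R, as were 20.9% of all probes so detected. The other Irf1 probe, detected on all 8 arrays, changed by -0.29 and was not called. Another 9 were detected on no array, interleukin 4 (Il4) among them, and 6 of those 9 were called higher, against the 67.7% given above.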

How the data were processed

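Total RNA of each mouse was hybridized to a 1-colour array, and per the study the array work was done by RIKEN Genesis. The scanned images were read with Agilent Feature Extraction 10.7.3.1, per the file headers, which place the probes on mm9. The authors deposited each array's processed signal (intensity, background subtracted), detection flags and a table of log2 values, whose 75th percentile lies near 0 and which matched the scaled signals used here to within 0.01, after a constant shift, for at least 99.97% of probes on each array. Control spots and outlier spots were left out and spots of 1 probe averaged. Scaled signals are log2 of the processed signal minus the array's 75th percentile. Strains were compared with limma 3.58.1 in R 4.3.3 over 56605 probes (adjusted p under 0.05 and 2-fold), tested first on simulated data. All 8 arrays were on 1 slide and in 1 scan. The members and lists were chosen with earlier results of these data known. By rule, members detected on every array of a strain are described with values and the others by their detection. Of 64 RefSeq accessions of the member probes, 62 matched the RefSeq table. Alternatives were normexp (offset 50), quantile, median, spike-in and detected-probe scaling, detection filters, a floor, the authors' log2 values, the methods' t-test, limma trend, a replicate block and leaving out each mouse. Exon and UTR positions were not analysed here. Array number limits the precision, and 4 mice of each strain were used. Results for 2 genes, and for the list of receptor signalling genes, are not reported here.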

Additional observations from a re-analysis of the deposited data

Results flagged for a closer look

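In 3 of 41 groups of 4 mice examined, 1 mouse stood further from the others than Dixon's 95% limit allows (gaps of 0.866 to 0.919 of the range), where chance flags about 1 in 20 groups. For Pf4, B6 replicate 1 read -1.13 and the other B6 mice -0.81 to -0.76; without it Pf4 fell by 0.78 on the log2 scale. For the Cxcl12 probe A_55_P1966204, B6 replicate 4 read -0.96 and the other B6 mice -1.25 to -1.23. For the Cxcl11 probe A_55_P2044413, B6 replicate 4 read 2.98 and the others 3.04.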

How the results depend on the processing

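The count of member probes called higher in BTBR/R mice, 21 in the comparison reported, was 1 with normexp correction, 2 with quantile normalization, 2 when only probes detected on every array of 1 strain were tested, 2 with only probes detected on all arrays and 1 with a floor at the highest detection limit. The count called lower, 3, became 1, 6, 2, 0 and 0 in the same order. The 2 called probes detected on all 8 arrays became 1 with normexp correction and 1 with the floor, and ranged from 1 to 2 when a mouse was left out. The 17 called probes detected on no array became 0 with normexp, quantile normalization, either filter and the floor. Leaving out a mouse gave 20 to 21 higher, 2 to 4 lower and 17 to 18 detected on no array. The cause of these shifts was not tested, except that the filters remove the undetected probes and the floor sets them equal. Same-numbered mice did not deviate together (correlations of 0.003, -0.070, -0.045 and 0.156), so the numbers do not pair the mice. A replicate block gave 20 probes higher and 2 lower, the call of Ccl28 being lost, with 2 called among those detected on all arrays, and it took the adjusted p of Cxcl14 to 0.0537. Ccl17 was called in every alternative, with changes of 1.75 to 2.12. Pf4 and Ccr6 were below 2-fold with an adjusted p under 0.05 in every alternative. A slide or scan block was not run, since all arrays shared 1 slide and 1 scan.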
